A study of Mus musculus with 6 samples.

Results

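The genes described here are 40 genes of the skeletal muscle fibre, followed through 6 RNA-sequencing libraries of mouse lung. They were chosen by name: a row of the count table belonged to the set when its gene symbol was one of the 40, and all 40 were found among the 41388 genes of the table. KO mice were of the B6.129S7-Zpbp2 tmZuk/Mmjax strain, in which the start of Zpbp2 (exon 1 through exon 3, the 5′ region) is deleted on a C57BL/6J background, and the WT controls were C57BL/6J animals bred alongside them. Lungs of adult mice of both genotypes were taken at Zeitgeber time 7, which is 7 h into the light phase of a 12h:12h light/dark cycle. The labels gave 3 libraries per genotype, named WT1, WT2, WT3, KO1, KO2 and KO3. The labels named no other treatment and gave neither the sex nor the exact age of a mouse. The study asked how the Zpbp2 region and the circadian clock act on each other, and the comparison of KO with WT here asks whether muscle genes in the lung differed with the deletion.

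A skeletal muscle fibre contracts when myosin heads of the thick filament pull on actin of the thin filament. Calcium released from internal stores binds the troponin complex, which uncovers actin, and a calcium pump then returns it to the store. Slow and fast fibres use different genes for the same part: each has its own myosin heavy chain, troponin I, T and C, and calcium pump, and fast fibres split further by their myosin (Myh2 in type IIA, Myh1 in type IIX and Myh4 in type IIB fibres). Embryonic (Myh3) and perinatal (Myh8) myosin belong to developing or regenerating fibres and to a few specialised adult muscles. The lung itself holds smooth muscle, which uses other genes, and mouse pulmonary veins carry a sleeve of heart muscle, which shares many genes with the slow fibre. Of the 40 members, 14 were listed as fast, 3 as slow (Tnnt1, Tnni1 and Mybpc1), 2 as developmental myosins, 8 as shared with heart muscle, 9 as used by both fibre types and 4 as factors of the muscle lineage.

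Libraries held 59134950 to 71354388 counted reads. Zpbp2 had 20, 15 and 7 reads in WT1, WT2 and WT3 and 1, 0 and 0 reads in KO1, KO2 and KO3, so that each KO library was under the floor of 3 reads. Markers of lung (8 genes such as Sftpc, Scgb1a1 and Ager) summed to between 45381 and 73537 CPM, where CPM is the number of reads of a gene per 1e6 reads of the scaled library, so that every library carried the labelled tissue. KO2 and KO3 differed from each other by little more than counting noise and were treated as 1 sample, which leaves 3 WT and 2 KO samples. The p-values measure only the spread between these samples. WT3 and KO1 stood apart from the other 4 libraries in most of the genes described below, and the comparison of genotypes is therefore given both with them and without them. In bulk tissue, more muscle cells and more muscle RNA per cell cannot be told apart.

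The 40 genes together took 0.140% of the reads in WT1, 0.0787% in WT2, 0.682% in WT3, 0.928% in KO1, 0.0398% in KO2 and 0.0394% in KO3. The share in KO1 and WT3 was thus several times that of any other library, and the high libraries were 1 of each genotype. The gene that led the set also differed: it was Mb, the myoglobin gene, in WT1, WT2, KO2 and KO3, and Acta1, the actin gene of skeletal muscle, in WT3 and KO1. In 36 of the 40 genes, WT3 and KO1 were both above each of the other 4 libraries, an order seen in 12.5% of all genes tested. In 23 of the 40 they were both at least 10-fold above every other library, which held for 1.28% of all genes tested. The 36 included all 14 fast, all 3 slow, both developmental, all 9 genes of both fibre types and all 4 lineage factors. Of the 8 genes shared with heart muscle, 4 had this order, and Actn2, Smpx, Ckmt2 and Mb did not.

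**Figure D1:**
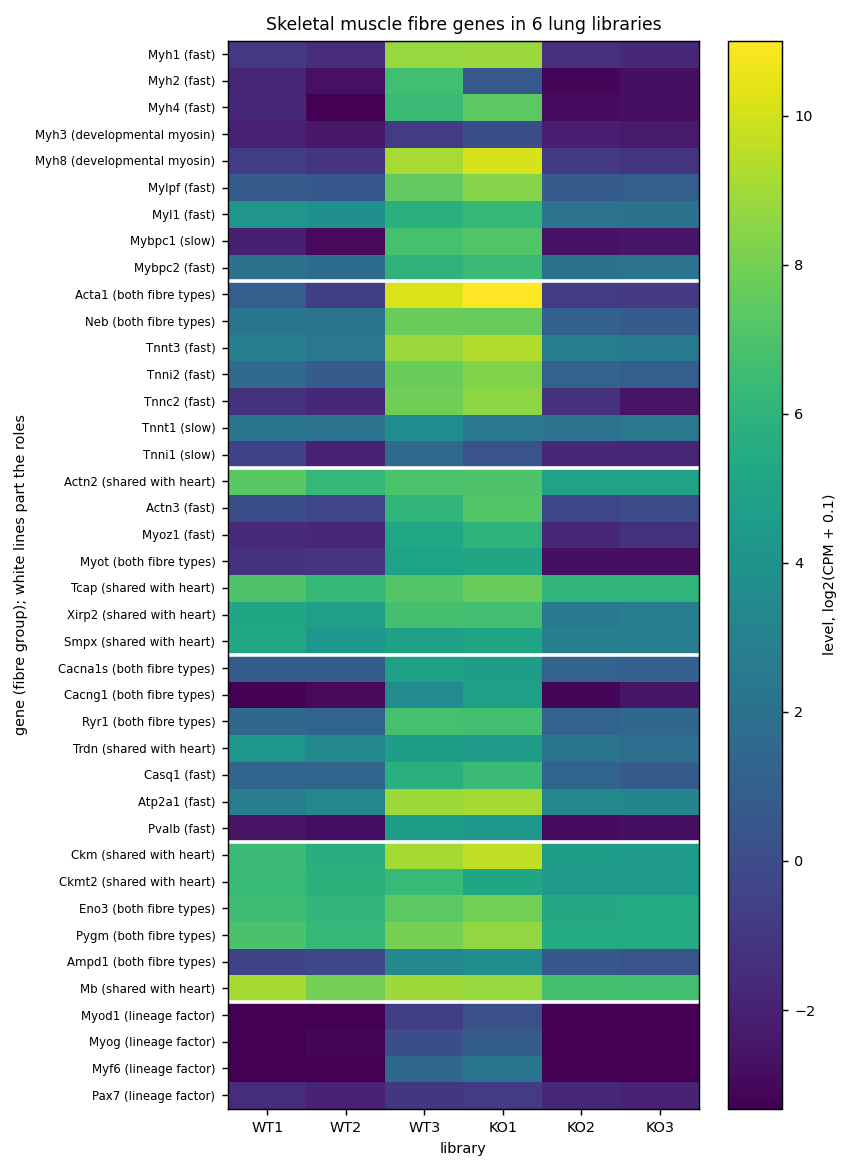
Level of each of the 40 genes (rows, grouped by role from the thick filament at the top to the lineage factors at the bottom) in each of the 6 libraries (columns), as log2(CPM + 0.1) from dark (low) to yellow (high). The columns of WT3 and KO1 are brighter than the other 4 in 36 rows, and Myh2 is bright in WT3 alone.

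The myosin heavy chain genes, which encode the motor of the thick filament, included Myh8 and Myh1, the members in which WT3 and KO1 stood furthest above the other libraries. They lie in a row on chromosome 11 (GRCm38): Myh3 at chr11:67078300-67102291, Myh2 at chr11:67171027-67197517, Myh1 at chr11:67200052-67224575, Myh4 at chr11:67238029-67260446 and Myh8 at chr11:67277124-67308634, 31.2 Mb from Zpbp2 (chr11:98551097-98558665). Their coding sequences resemble each other so closely that part of the reads may fit more than 1 gene. Coding sequences of Myh1, Myh2, Myh4 and Myh8 were 87.9% to 91.1% identical in pairs, and 26.3%, 26.9%, 19.2% and 20.4% of their 50-base stretches occurred unchanged in at least 1 of the other 3. A stretch of 90 bases in which the 4 genes do not differ at all is shown first, because a read from it cannot be placed. It lies in 1 exon of each gene, on the plus strand, at chr11:67213605-67213694 in Myh1, chr11:67188704-67188793 in Myh2, chr11:67252224-67252313 in Myh4 and chr11:67297488-67297577 in Myh8.
Myh1, Myh2, Myh4 and Myh8 alike: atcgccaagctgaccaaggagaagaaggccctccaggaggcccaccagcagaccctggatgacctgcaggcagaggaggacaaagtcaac
The stretch of the same length in which they differ most follows, because reads from it separate the genes. It spans an exon junction in each gene (in Myh1 chr11:67215934-67215967 and chr11:67217464-67217519, in Myh2 chr11:67190400-67190433 and chr11:67191348-67191403, in Myh4 chr11:67254093-67254126 and chr11:67254458-67254513, in Myh8 chr11:67299364-67299397 and chr11:67299713-67299768), and capitals mark bases that differ from Myh1.
Myh1: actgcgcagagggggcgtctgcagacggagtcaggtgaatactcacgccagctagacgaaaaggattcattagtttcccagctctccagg
Myh2: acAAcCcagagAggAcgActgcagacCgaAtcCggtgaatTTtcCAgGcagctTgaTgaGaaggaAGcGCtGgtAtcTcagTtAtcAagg
Myh4: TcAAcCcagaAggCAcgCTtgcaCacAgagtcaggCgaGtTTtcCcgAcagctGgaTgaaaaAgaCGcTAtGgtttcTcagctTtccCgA
Myh8: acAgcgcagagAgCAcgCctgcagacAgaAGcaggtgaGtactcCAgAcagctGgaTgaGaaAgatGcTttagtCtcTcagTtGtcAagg
In this stretch Myh2, Myh4 and Myh8 differ from Myh1 at 27, 29 and 23 of 90 bases. Sequences are from the GENCODE M21 transcripts on GRCm38.

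Myh8, the perinatal myosin, had 37 reads in WT1, 26 in WT2, 33783 in WT3, 71598 in KO1, 28 in KO2 and 20 in KO3. Myh1, of type IIX fibres, had 33, 18, 26708, 29193, 17 and 12 reads in the same order, and Myh4, of type IIB fibres, had 15, 0, 5271, 10705, 2 and 3. The lower of WT3 and KO1 was 1115-fold above the next library for Myh8, 988-fold for Myh1 and 429-fold for Myh4. Myh2, of type IIA fibres, behaved otherwise: it had 13, 4, 6019, 99, 1 and 3 reads, so that it was high in WT3 only, although KO1 was still 8.85-fold above the next library. Myh3, the embryonic myosin, stayed low with 11, 7, 28, 63, 8 and 6 reads.

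Taking these 5 genes together with Myh7, the myosin shared by slow fibres and heart muscle, Myh8 took 45.6% of their reads in WT3 and 63.3% in KO1. Myh1 took 36.0% in WT3 and 25.8% in KO1, and Myh4 took 7.11% and 9.46%. Myh2 took 8.12% in WT3 (95% exact binomial interval 7.92% to 8.32%) but 0.0875% in KO1 (0.0711% to 0.107%). Such intervals cover counting error only. The remainder was mostly Myh7, with 3.13% in WT3 and 1.31% in KO1. In the other 4 libraries the 6 genes had 1469 to 1667 reads in all, of which Myh7 took 92.6% to 97.0%. Myh6, a myosin of heart muscle, was outside this set. It had 168817, 75220, 47200, 24477, 22308 and 21277 reads in WT1, WT2, WT3, KO1, KO2 and KO3. The shares therefore hold within the 6 genes only. Transcript lengths of the 6 genes are alike (6016 to 6230 bases), so shares of reads are close to shares per length. WT3 and KO1 therefore shared a high level of Myh8 and Myh1 and differed in Myh2, with 1 library of each kind and no replicate of either.

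**Figure D2:**
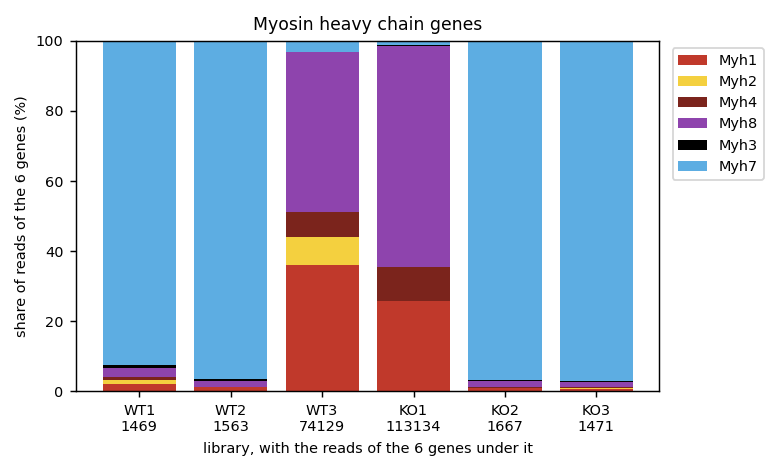
Share of the reads of 6 myosin heavy chain genes (stacked bars from 0 to 100%, the number of reads under each library name) that fell to each gene. WT3 and KO1 consist mainly of Myh8 and Myh1, Myh2 forms a broad band in WT3 but not in KO1, and Myh7 fills over 92% of each of the other bars.

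The other thick filament genes followed the same 2 libraries. Mylpf, the regulatory light chain of fast fibres, was at 1.67, 1.42, 188, 333, 1.72 and 1.88 CPM in WT1, WT2, WT3, KO1, KO2 and KO3. Myl1, the essential light chain of fast fibres, was at 17.6, 14.5, 53.8, 75.2, 4.30 and 3.89 CPM. Unlike Mylpf, Myl1 was not near zero in WT1 and WT2 and was lower in KO2 and KO3 than in these. The myosin binding protein C genes, which brace the thick filament, gave 0.137, 0.0285, 113.5, 141, 0.0645 and 0.0857 CPM for Mybpc1, the slow form that fast fibres also make, and 3.92, 3.29, 64.8, 87.7, 4.17 and 4.21 CPM for Mybpc2, the fast form. Both forms were thus high in WT3 and KO1 only.

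The thin filament held the gene with the most reads in WT3 and KO1. Acta1 (chr8:123891769-123894751, minus strand) had 134, 38, 72082, 129627, 30 and 24 reads in the order WT1, WT2, WT3, KO1, KO2 and KO3, which is 1.83, 0.541, 1202, 2058, 0.483 and 0.411 CPM. Neb, which encodes the giant protein that sets the length of the thin filament, was at 4.68, 4.51, 214, 207, 2.10 and 1.68 CPM. The fast troponin genes had the same order of libraries. Tnnt3 reached 456 CPM (WT3) and 647 CPM (KO1) against 5.08 to 7.59 CPM elsewhere, Tnni2 was at 219.6 and 315.5 CPM against 1.72 to 3.07 CPM, and Tnnc2 was at 239 and 378 CPM against 0.0685 to 0.328 CPM. These 3 genes encode the tropomyosin-binding, inhibitory and calcium-binding subunits of fast troponin. The genes Tnnt3 and Tnnc2 overlap Prr33 and Ube2c on the opposite strand, and without a stated strand setting reads of such pairs cannot be told apart.

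The slow troponin genes differed far less between libraries. Tnnt1, slow troponin T, was at 4.44, 4.24, 12.7, 5.03, 4.25 and 4.93 CPM, so that WT3 was high and KO1 was level with KO3. Tnni1, slow troponin I, was at 0.628, 0.157, 3.02, 1.16, 0.210 and 0.188 CPM, with 181 reads in WT3 and 73 in KO1 against 11 to 46 in the others. Fast over slow form of troponin I, Tnni2 over Tnni1 in CPM per kilobase of transcript, was 8.42, 18.9, 125, 469, 18.3 and 17.8 in WT1, WT2, WT3, KO1, KO2 and KO3. For troponin T, Tnnt3 over Tnnt1 was 1.68, 1.18, 35.3, 126, 1.48 and 1.19. The balance of both subunits thus lay further to the fast form in KO1 than in WT3, and further in both than in the other 4 libraries. Myosin binding protein C went the other way: Mybpc2 over Mybpc1 was 0.593 in WT3 (95% exact counting interval 0.570 to 0.617) and 0.645 in KO1 (0.624 to 0.667). In the other libraries it rested on 2 to 10 reads of Mybpc1 and was 29.8 in WT1 (16.0 to 62.9), 120.0 in WT2 (32.85 to 997), 67.3 in KO2 (26.0 to 249) and 51.1 in KO3 (21.6 to 159).

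Summed per kilobase, the 14 fast genes stood at 35.6, 28.4, 1756, 2565, 21.7 and 19.95 CPM per kb in WT1, WT2, WT3, KO1, KO2 and KO3. The 3 slow genes stood at 4.77, 4.15, 44.8, 43.4, 4.22 and 4.85 CPM per kb. Their ratio was 7.46, 6.85, 39.2, 59.1, 5.15 and 4.12. Most of the slow sum in WT3 and KO1 was Mybpc1, and without it, a choice made after seeing the data, the ratio was 120.5 in WT3, 445 in KO1 and 4.14 to 7.52 in the other 4. When 7 further genes of the slow fibre that heart muscle also makes (Myh7, Myl2, Myl3, Tnnc1, Myoz2, Csrp3 and Atp2a2) were added to the slow side, the ratio was 3.44 in WT3, 4.30 in KO1 and 0.0539 to 0.111 in the other 4 libraries. WT3 and KO1 had the highest ratios under each of these choices, while the ratio itself depended on which slow genes were counted. Among those 7, Myl3, the essential light chain of slow fibres and ventricle, was the only one with both WT3 (124 CPM) and KO1 (266 CPM) above the others (8.51 to 27.1 CPM).

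**Figure D3:**
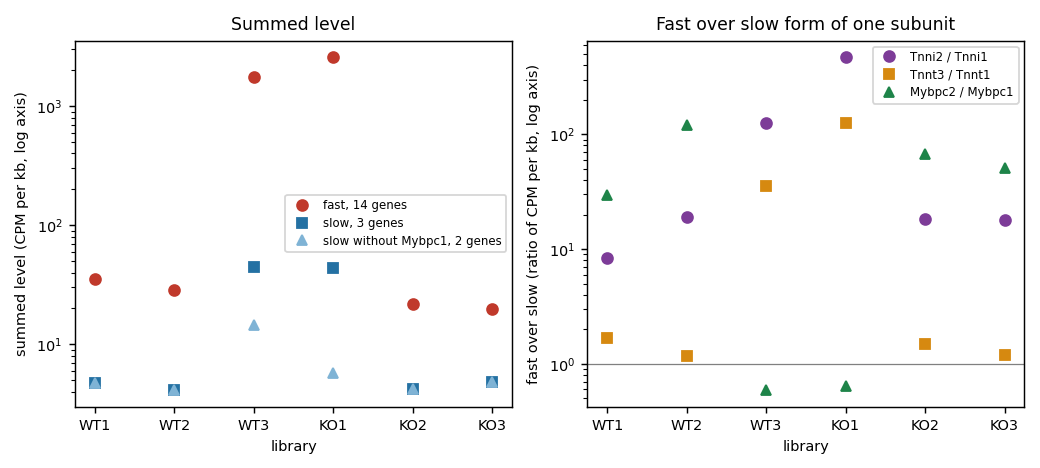
Left, summed level of 14 fast, 3 slow and, without Mybpc1, 2 slow genes in each library (CPM per kb, log axis). Right, ratio of the fast to the slow form of troponin I, troponin T and myosin binding protein C in each library (log axis, grey line at equal levels). WT3 and KO1 have the highest fast sums and troponin ratios and the lowest Mybpc2 over Mybpc1.

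The Z-disc, which anchors the thin filaments, divided only in part by whether heart muscle uses the gene. Actn3, the alpha-actinin of fast fibres, was at 0.983, 0.683, 69.1, 145, 0.741 and 0.908 CPM. Myoz1, a calcineurin-binding protein of fast fibres, stayed at 0.2095 to 0.3255 CPM in 4 libraries and reached 37.0 CPM in WT3 and 62.4 CPM in KO1, and Myot, the myotilin gene, stayed at 0.0483 to 0.356 CPM and reached 32.0 and 34.5 CPM. In contrast, Actn2, the alpha-actinin of heart and all fibres, was at 159, 73.5, 124, 132, 30.9 and 30.2 CPM, with the highest level in WT1. Smpx, a small stretch-responsive protein, ran in the same order at 37.5, 18.7, 28.7, 35.7, 7.66 and 6.85 CPM. Xirp2, an actin-binding protein of cell junctions and Z-discs, was at 35.3, 26.8, 109, 106, 6.22 and 6.78 CPM and thus had both patterns. Tcap, the titin cap, lies on the chromosome of the deletion at chr11:98383811-98384953, 166 kb from Zpbp2. It was at 132, 77.0, 143, 203, 66.4 and 66.3 CPM. KO1 and WT3 were thus its highest libraries, with WT1 close below, and the WT and KO ranges overlapped.

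Genes of calcium handling were low in 4 libraries and high in WT3 and KO1. Atp2a1, the fast calcium pump, was at 6.71, 9.78, 482, 534, 9.88 and 8.94 CPM in WT1, WT2, WT3, KO1, KO2 and KO3. It overlaps Rabep2, which had up to 3053 reads in a library, and the low values may hold reads of either gene. The calcium release channel Ryr1 was at 2.24 to 2.72 CPM in 4 libraries, 112 CPM in WT3 and 101.5 CPM in KO1. Its voltage sensor Cacna1s stood at 1.76 to 2.30 CPM in those 4 and at 29.8 CPM in WT3 and 25.75 CPM in KO1, and its partner subunit Cacng1 was at 12.0 and 28.0 CPM against at most 0.0857 CPM. Casq1, the calcium store protein of fast fibres, was at 1.73 to 2.49 CPM and then 54.0 and 88.65 CPM. Pvalb, the calcium buffer of the fastest fibres, was at 0.0322 to 0.0683 CPM and then 24.7 and 18.05 CPM. Trdn, triadin, which heart also uses, was at 19.1, 10.4, 25.2, 23.75, 4.38 and 3.67 CPM. WT3 and KO1 were its highest libraries, with WT1 close below, and KO2 and KO3 its lowest.

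Summed per kilobase, the 6 genes of energy supply were the highest group in the low libraries, at 673, 361, 165 and 163.5 CPM per kb in WT1, WT2, KO2 and KO3. Mb, which stores oxygen, was at 532, 256, 479, 443, 109 and 106 CPM, with the highest level in WT1 and overlapping genotypes. Ckm, the creatine kinase of the cytosol, was at 88.4, 51.1, 540, 786, 24.6 and 24.1 CPM. Ckmt2, the creatine kinase of muscle mitochondria, was at 84.3, 59.8, 79.3, 35.0, 21.8 and 21.9 CPM. It was the only gene of the 40 with all 3 KO libraries below all 3 WT libraries, an order found in 20.7% of all genes tested. Pygm, which breaks down glycogen, was at 120, 73.4, 272, 404, 44.5 and 45.4 CPM, and Eno3, the muscle enolase, at 94.4, 70.3, 168, 253, 40.7 and 43.4 CPM. Ampd1, the AMP deaminase of muscle, was at 0.642 to 1.45 CPM in 4 libraries and at 10.6 and 12.9 CPM in WT3 and KO1. Mb overlaps Apol6 on the other strand, so that some of its reads may belong to either gene. Apol6 had at most 1612 reads in a library, against 6183 to 38945 for Mb.

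**Figure D4:**
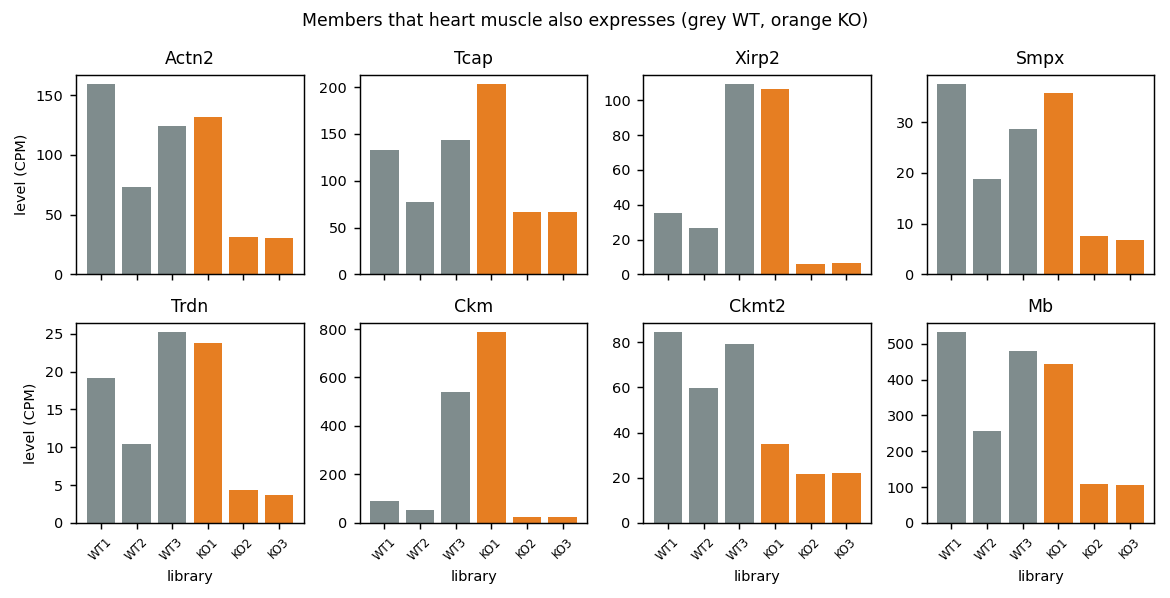
Level (CPM, bars from 0) of the 8 genes that heart muscle also expresses in each library, WT in grey and KO in orange. KO2 and KO3 are the lowest libraries in each panel, KO1 is within or above the range of WT in 7 of the 8, and Ckmt2 is the gene whose KO bars all lie below the WT bars.

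Factors of the muscle lineage were near the floor except in WT3 and KO1. Myf6, the factor most expressed in mature fibres, had 0, 0, 164, 298, 0 and 0 reads in WT1, WT2, WT3, KO1, KO2 and KO3. Myog, which drives myoblasts to fuse, had 0, 1, 58, 113, 0 and 0 reads, and Myod1, which commits cells to the lineage, had 0, 0, 32, 65, 0 and 0. Against the floor of 3 reads in a library (0.041 to 0.0514 CPM), the lower of WT3 and KO1 was at least 53.2-fold higher for Myf6 and at least 10.4-fold higher for Myod1. Pax7, which marks the stem cells of muscle, had 20, 12, 24, 29, 13 and 10 reads and differed far less. The factors of fibres and committed cells were therefore detected in 1 library of each genotype, while Pax7 was present at a low level in all 6.

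Promoter sequence was examined because these genes varied together and Myod1, Myog and Myf6 bind the E-box, CANNTG (the same on both strands). RefSeq windows of 250 bases before the gene start on GRCm38.p6 were found for 28 members, 32 windows in all. For 5 of these members a window belongs to a RefSeq start that lies 2163 to 27943 bases from the start of the GENCODE gene. Since windows of 1 gene can overlap, each gene was counted once, as holding a motif in at least 1 of its windows. An E-box was found for 23 of the 28 members (82.1%) and for 69.3% of 27025 genes with a window. The letters CAGCTG, which are a subset of the E-box, were found for 13 (46.4%) against 14.7%, the sequence CTANNNNTAG, which includes the consensus of MEF2 factors, for 2 (7.14%) against 3.70%, and TATAAA on either strand for 7 (25.0%) against 14.3%. A match is a run of letters and not a measured site. Windows of 3 genes are shown, with E-boxes and the MEF2-like sequence in capitals: Acta1 as the member with the most reads in WT3 and KO1, Myog as a lineage factor and Xirp2 as a gene shared with heart.
Acta1 (chr8:123894776-123895025, minus strand): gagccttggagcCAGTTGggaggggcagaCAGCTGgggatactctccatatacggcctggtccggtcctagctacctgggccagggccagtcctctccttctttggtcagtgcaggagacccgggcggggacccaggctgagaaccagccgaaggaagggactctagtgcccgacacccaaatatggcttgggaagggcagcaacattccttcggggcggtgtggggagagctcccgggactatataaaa
Myog (chr1:134289754-134290003, plus strand): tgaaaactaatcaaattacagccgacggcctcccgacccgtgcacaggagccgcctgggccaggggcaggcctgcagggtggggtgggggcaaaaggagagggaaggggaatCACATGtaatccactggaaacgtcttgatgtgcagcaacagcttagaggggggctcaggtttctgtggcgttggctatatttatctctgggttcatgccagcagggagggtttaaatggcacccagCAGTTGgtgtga
Xirp2 (chr2:67445752-67446001, plus strand): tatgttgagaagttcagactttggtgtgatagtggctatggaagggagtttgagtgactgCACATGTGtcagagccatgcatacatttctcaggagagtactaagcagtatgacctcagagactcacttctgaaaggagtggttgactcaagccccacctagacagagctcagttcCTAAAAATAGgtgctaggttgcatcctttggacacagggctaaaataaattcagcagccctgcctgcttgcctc
Acta1 and Myog followed WT3 and KO1, and Xirp2, whose window also holds the MEF2-like sequence, was high in these libraries and lower in KO2 and KO3 than in WT1 and WT2.

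WT3 and KO1 were then set side by side, 1 library of each genotype, without a test. The ratio of KO1 to WT3 had a median of 1.38 over the 40 genes, with 29 above 1. Cacng1 was highest at 2.33 (95% exact counting interval 2.14 to 2.55), followed by Myh3 at 2.14 (1.35 to 3.47), Actn3 at 2.09 (2.02 to 2.17) and Myh8 at 2.02 (1.99 to 2.04). Myh1 was at 1.04 (1.02 to 1.06) and Mybpc1 at 1.25 (1.21 to 1.29), while Acta1 was at 1.71 (1.70 to 1.73) and Mb at 0.924 (0.909 to 0.940). Lowest by far was Myh2 at 0.0157 (0.0127 to 0.0191). The slow troponin genes were next with Tnni1 at 0.384 (0.288 to 0.506) and Tnnt1 at 0.398 (0.348 to 0.454), followed by Ckmt2 at 0.441 (0.419 to 0.464) and Pvalb at 0.731 (0.676 to 0.790). The 7 further slow fibre genes that heart also makes had a median ratio of 0.687, with 2 of the 7 above 1. They were Myl2 at 0.0110, Atp2a2 at 0.598, Myh7 at 0.606, Tnnc1 at 0.687, Myoz2 at 0.918, Csrp3 at 1.33 and Myl3 at 2.15. The intervals cover counting error and not the spread between mice.

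**Figure D5:**
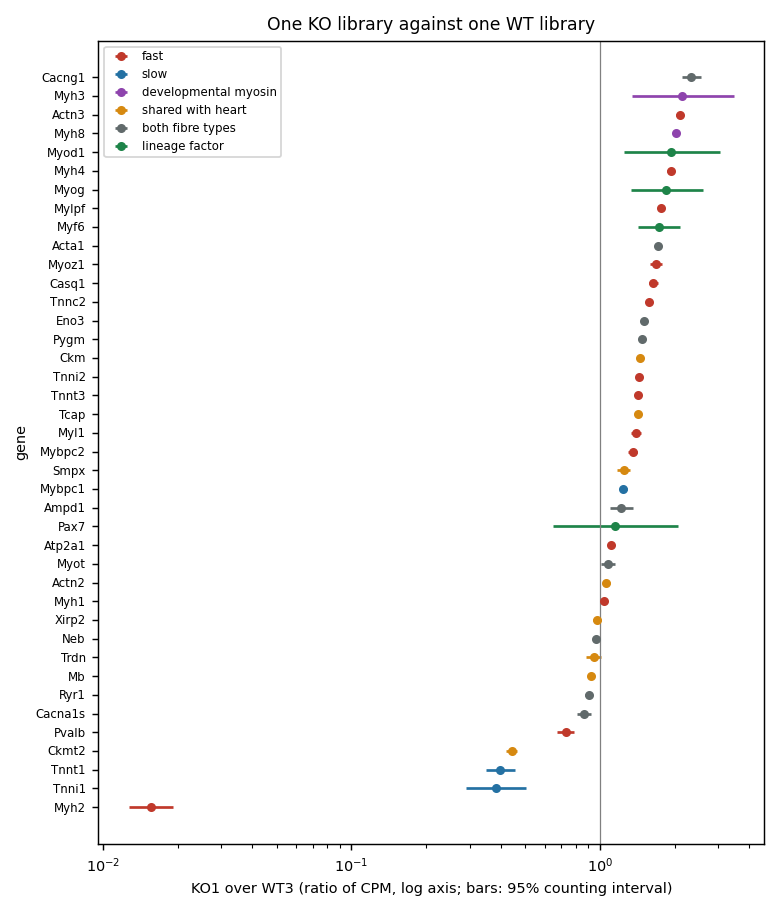
Ratio of the KO1 to the WT3 level (CPM, log axis) of each of the 40 genes, sorted, with 95% counting intervals as bars and colours for the fibre group. Most genes lie between 0.7 and 2.4, Myh2 lies at 0.0157, and Tnni1, Tnnt1 and Ckmt2 lie between 0.38 and 0.45.

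Across genotypes, none of the 40 genes passed the test. With 3 WT and 2 KO samples, edgeR's quasi-likelihood test with Benjamini-Hochberg adjustment over 18660 genes called 426 genes (2.28%) at a threshold of 0.05 on the adjusted p. Of the 40 members 0 were called, and 1 had an unadjusted p under that threshold, where 27.3% of all genes tested did. DESeq2 on the same samples called 1 member and 22.9% of the 17124 genes to which it gave an adjusted p. It gave none to some members, among them Acta1, Myh2, Myot and Neb, so these were not judged by it. Fitted log2 fold changes (KO minus WT) were above 0 in 31 members and below 0 in 9, with a median of 0.69 against 0.02 over all genes tested. Without WT3 and KO1 the median turned to -0.56 over the 35 members tested. With 6 separate libraries and a replicate block it was -0.16 over the 33 members tested, so the set of genes also changed. Their standard errors reached 3.6, for Myh2 with a log2 fold change of -5.46 (edgeR adjusted p 0.391), so that single values carry little information. By group, the median was 1.08 for fast, -0.56 for slow, 1.40 for the developmental myosins, -0.40 for genes shared with heart, 0.53 for genes of both fibre types and 1.41 for lineage factors. Without WT3 and KO1 it was -0.20 for fast, -0.16 for slow, -0.12 for the developmental myosins, -1.87 for genes shared with heart and -1.04 for genes of both fibre types. The WT mean of Acta1 was 401.5 ± 693 CPM (SD, n = 3), and the KO mean was 1029 ± 1455 CPM (SD, n = 2), a difference smaller than the SD of either genotype.

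The member nearest the threshold was Ckmt2. Its WT mean was 74.5 ± 13.0 CPM (SD, n = 3), and its KO mean was 28.4 ± 9.32 CPM (SD, n = 2). Its log2 fold change was -1.39 with a standard error of 0.26 and an edgeR adjusted p of 0.0575. Over 14 other settings the fold change stayed between -1.77 and -1.29, and the adjusted p ran from 5.51e-07 to 0.189. Ckmt2 is 1 of the genes the study itself listed from these libraries, which makes it no independent evidence, and the same holds for several genes of the heart muscle and adipocyte lists used below. Genes that mark heart muscle cells had a like order of libraries: 11 of these, such as Myh6, Actc1 and Myl7, summed to 7437, 3186, 2612, 1541, 1361 and 1372 CPM in WT1, WT2, WT3, KO1, KO2 and KO3, and 10 of the 11 had all KO libraries below all WT libraries, against the 20.7% of all genes given above. With all samples edgeR called 0 of the 11 (smallest adjusted p 0.0721), with 8 at an unadjusted p under 0.05, and DESeq2 called 6. Of the 8 adipocyte genes 7 also had all KO libraries below all WT libraries, and edgeR called 1 (adjusted p 0.0496) and DESeq2 6. The 8 lung genes went the other way, all higher in KO, and edgeR called 4 of them, against 2.28% of all genes. The part of these lists in the Ckmt2 result was not tested.

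Without WT3 and KO1 the genes shared with heart were lower in the remaining KO sample. These 2 libraries were left out for their levels of the members themselves, and KO1 lay within or above the WT range in 7 of the 8 genes shared with heart, so the counts describe the remaining libraries and are no separate evidence of a difference between genotypes. The comparison then had WT1 and WT2 against the sum of KO2 and KO3 as 1 sample, which is assumed to vary like the WT samples, and 35 members were tested, since Cacng1, Pvalb, Myod1, Myog and Myf6 fell below the filter. In this fit 12 of the 35 were called, all lower in KO, where 5.88% of 18971 genes were called lower. Leaving out KO1 alone, with all 3 WT libraries kept, called 0 members (edgeR adjusted p 0.125 for Mb and 0.182 for Xirp2), as did leaving out any other single library. Xirp2 fell by 2.26 on the log2 scale (SE 0.17, edgeR adjusted p 0.000293), Ckmt2 by 1.73 (SE 0.19, 0.00184) and Mb by 1.88 (SE 0.36, 0.0159). Smpx had a change of -1.96, Actn2 of -1.93, Trdn of -1.87 and Ckm of -1.52, with edgeR adjusted p from 0.0114 to 0.0168, so that 7 of the 8 genes shared with heart passed. Tcap, the eighth, had a change of -0.66 (edgeR adjusted p 0.135). In the same fit 10 of the 11 heart muscle cell genes (median -2.21) and 7 of the 8 adipocyte genes (median -2.90) were called lower, of the lung genes 6 of 8 were called higher (6.01% of all genes tested), and of the squamous epithelium genes 1 of 12 was called lower and 1 higher. Their part in the result was not tested. Of the fast genes 1 of 13 passed, Myl1 at -1.97 (0.000586), and of the slow genes 0 of 3, with 0 at an unadjusted p under 0.05. Neb (-1.28), Pygm (-1.11), Eno3 (-0.97) and Myot (-2.75, with 3 reads in each of KO2 and KO3) of the genes of both fibre types also passed.

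The other genes of the muscle programme were read from a list of 42 (receptors of the nerve synapse, sarcomere and membrane genes). With all samples edgeR called 0 of them between genotypes, with 2 at an unadjusted p under 0.05, and DESeq2 called 2, both below the shares of 27.3% and 22.9% over all genes. WT3 and KO1 were both above every other library in 24 of the 42 (12.5% of all genes tested), among them the acetylcholine receptor gene Chrna1, at 2.65 and 4.11 CPM against at most 0.0645 CPM, and the sarcomere gene Klhl41, at 42.7 and 64.0 CPM against 2.91 to 9.60 CPM. Without WT3 and KO1, 26 of the 40 that could be tested were called lower, against 5.88% of all genes, and 1, Chrnb1, higher, against 6.01%. Both patterns met in 12 of the 42, Klhl41 among them, and of the 12 members called in that fit 8 also had WT3 and KO1 above every other library.

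Markers of other cell types were read beside these results. A list of 20 genes of squamous epithelium, the lining of the oesophagus and similar surfaces, summed to 36.1, 35.1, 5242, 9686, 41.4 and 42.2 CPM in WT1, WT2, WT3, KO1, KO2 and KO3, with KO1 and then WT3 highest, as for the fast fibre genes. WT3 and KO1 were both above the other 4 in 19 of the 20, and the other, Crnn, was listed at 0. Krt4 and Krt13, keratins of this lining, led it at 1988 and 1856 CPM in WT3 and 3691 and 3576 CPM in KO1, against at most 0.976 CPM elsewhere. Smooth muscle genes (10, such as Acta2 and Myh11) summed to 1551 to 2040 CPM, with KO1 the highest library and WT2 the lowest. Adipocyte genes (8) summed to 473, 736, 361, 62.1, 188 and 190.5 CPM and were not highest in WT3 and KO1 as the fast fibre genes were. Of the 8, 7 had the order of Ckmt2, with all KO libraries below all WT libraries (20.7% of all genes tested). The part that other tissue had in the levels of the muscle genes was not tested.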

How the data were processed

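RNA of whole lung was sequenced from 3 WT and 3 KO mice at ZT7, and the deposited table holds raw counts, whole numbers of reads per gene with no normalization. The authors made it with the GenPipes pipeline: quality trimming, STAR alignment (GRCm38) and gene counting by HTSeq. The submitters' processing notes name Trimmomatic 0.36, STAR 2.5.3a, Picard 2.9.0 and HTSeq 0.6.0. The annotation release and the strand setting are not given in the sources used here, so that counts of overlapping genes and of near-identical myosin genes are uncertain. Of the 41388 gene identifiers, 97.5% were in GENCODE M21, which gave coordinates and transcript lengths (the transcript with the longest coding sequence). All 6 columns of counts were used and 0 rows named no gene.

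KO2 and KO3 had a variance of 1.71 to 3.32 times that of counting alone, against 1.86 to 147 in the other pairs of a genotype, where it grew with the count, and were summed to 1 sample. In R 4.3.3 with edgeR 4.0.16, genes were filtered with filterByExpr, scaled with TMM factors and tested two-sided with the quasi-likelihood test, with Benjamini-Hochberg adjustment over all genes tested and a threshold of 0.05. Each standard error is the log2 fold change divided by the root of F. Library sizes behind CPM are TMM-scaled, means and SDs count KO2 and KO3 once, and 3 counts were taken as the floor. The fit was tested on data simulated for this comparison (18554 genes, dispersion 0.02): it recovered 87% of 100 genes changed 2-fold and 100% of 100 changed 4-fold, and called 12 unchanged genes. Members high in WT3 and KO1 varied far more (standard error 3.41 for Acta1), so this recovery does not apply to them. Alternatives were other scalings and filters, separate libraries, a replicate block, DESeq2 1.42.0 and libraries left out. The members and the gene lists were chosen with earlier results of these data known. All 40 members are accounted for, and other genes were named from fixed lists by level. PCR copies were not separated from independent molecules, so intervals and floors cover counting error alone.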

Additional observations from a re-analysis of the deposited data

How the results depend on the processing

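No setting other than leaving out WT3 and KO1 together called more than 1 of the 40 genes, and the 1 was Ckmt2. The number of genes called over the whole table was 426 and became 909 when each library had to hold 10 counts or more, 3402 with 6 separate libraries, 1157 with those libraries and the replicate block, 3919 with DESeq2, 0 to 418 without 1 library (0 without WT1, WT2 or WT3, 17 without KO1) and 2256 without WT3 and KO1, and the cause was not tested. Members called were 0 and became 1 under the filter of 10 counts, with 6 separate libraries, with the replicate block and with DESeq2, and 12 without WT3 and KO1, with 0 in each fit without 1 library. Members tested were 40 in the main fit, 30 under the filter of 10 counts and 33 with 6 separate libraries, with or without the replicate block. Deviations from the genotype means correlated at -0.656 for WT1 and KO1, 0.755 for WT2 and KO2 and -0.821 for WT3 and KO3. WT1 and WT3 thus did not correlate best with the KO library of their own number. The highest value was 0.853, for WT3 and KO1. Because these libraries stood apart, the correlations cannot show whether equal numbers in the labels mark pairs.

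Medians rested on WT3 and KO1. Without 1 library, the median log2 fold change over the members tested ran from -4.06 (without KO1, 40 members) to 3.17 (without WT3, 34 members). It ran from -5.15 to 6.05 over fast genes, from -2.66 to 0.44 over slow genes and from -1.97 to -0.24 over genes shared with heart. For the latter it was -1.20 with the replicate block and -1.87 without WT3 and KO1, while the median over the members tested (33 and 35) turned to -0.16 and -0.56 and that over fast genes was 0.19 and -0.20. Direction turned in 12 of 17 genes whose fold changes were followed. With 6 separate libraries Tcap was at -0.07, Myl1 at -0.04 and Neb at -0.08. With the replicate block Ckm was at -0.92, Tcap at -0.23, Myl1 at -1.29, Myot at -2.17, Neb at -1.04, Pygm at -0.55, Eno3 at -0.48 and Acta1 at -0.16. Without WT3 and KO1 Ckm was at -1.52, Tcap at -0.66, Myl1 at -1.97, Myot at -2.75, Neb at -1.28, Pygm at -1.11, Eno3 at -0.97, Acta1 at -1.41 and Tnnt1 at 0.08. Without KO1 Ckm was at -3.22, Tcap at -0.83, Myl1 at -2.80, Myot at -7.73, Neb at -5.30, Pygm at -1.79, Eno3 at -1.40 and Acta1 at -9.80, while Xirp2 at -3.14 and Myh2 at -9.91 kept their direction. Without WT3 Xirp2 turned to 0.86, Myh2 to 2.69, Tnnt1 to 0.15 and Tnni1 to 0.73. Ckm at 2.54, Tcap at 0.37, Myl1 at 1.30, Myot at 5.65, Neb at 4.51, Pygm at 1.22, Eno3 at 0.84 and Acta1 at 9.76 kept their direction there. Tcap was at -0.03 without WT2, and Neb was at -0.07 without WT1 and without WT2.

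In WT1, WT2, WT3, KO1, KO2 and KO3, the fast to slow ratio without a length correction was 8.73, 8.98, 19.5, 22.5, 7.21 and 5.81, with the slow genes shared with heart added it was 0.0539, 0.0792, 3.44, 4.30, 0.111 and 0.1002, and without Mybpc1 it was 7.52, 6.86, 120.5, 445, 5.17 and 4.14. Depth limits the 9 genes with 3 reads or fewer in a library: Myod1, Myog, Myf6, Myh2, Myh4, Mybpc1, Myot, Cacng1 and Pvalb.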
